A study of Homo sapiens with 48 samples.

Results

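CXCR4 (ENSG00000121966) is 1 gene of the 14685 in the count tables, and was found by its Ensembl identifier. It had counts in all 48 libraries, from 151 to 926 per library. RNA was sequenced from HEK293T, a line derived from human embryonic kidney, that had been transiently transfected with NCBP1 fused to the HaloTag protein (NCBP1-Halo). In the T-REX arm the cells received Ht-PreHNE, a caged form of the lipid-derived electrophile 4-hydroxynonenal (HNE) that anchors to Halo, and light then released HNE beside NCBP1, the larger subunit of the nuclear complex that binds RNA caps. The 3 control arms were light alone (control UV in the labels), probe alone (control Pre) and DMSO. Every arm carried NCBP1-Halo. RNA was taken 3, 6 and 12 h later, with 4 independent replicates in each of the 12 groups. The methods list the light-alone cells as treated with the probe as well, which the name of the arm does not say, so how that arm differs from T-REX could not be settled here.

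CXCR4 is a G protein-coupled receptor for the chemokine CXCL12. Bound ligand makes the receptor activate Gi proteins, whose subunits act on phosphoinositide 3-kinases, phospholipase C and MAP kinases, and G protein-coupled receptor kinases and arrestins then end the signal and direct the receptor to endosomes. The gene is best known in leukocytes, stem cell homing and metastatic cancer cells, and its transcription is raised by the factor NRF1 and by the hypoxia-inducible factors (HIFs) and held down by YY1.

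The CXCR4 promoter is shown because NRF1 and HIF motifs lie close together in front of its most upstream start. The sequence is that of RefSeq (GRCh38.p14, chr2:136118100-136118399, minus strand) and runs from 250 bases before the start to 50 bases after it. RefSeq gives 3 starts for the gene. Capitals mark matches to the motifs that were searched, in order the palindrome GCGCATGCGC of NRF1, the HIF core GCGTG, and TATAAA.
CXCR4 promoter: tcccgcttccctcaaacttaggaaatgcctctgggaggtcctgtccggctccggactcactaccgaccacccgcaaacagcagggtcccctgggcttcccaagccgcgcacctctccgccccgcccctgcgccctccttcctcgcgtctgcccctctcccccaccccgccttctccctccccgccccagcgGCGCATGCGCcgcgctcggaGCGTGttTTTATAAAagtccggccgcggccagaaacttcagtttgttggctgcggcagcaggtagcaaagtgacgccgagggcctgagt
The NRF1 palindrome lay at -59 to -50 from the start, and 1.37% of 27305 promoters of the same length, 1 per gene, held it on either strand. GCGTG lay at -39 to -35 and was held by 36.4% of promoters, and the other HIF core, ACGTG, was not in this window and was held by 21.6%. TATAAA, held by 12.0% of promoters, lay at -30 to -25, overlapping a match of the opposite strand at -32 to -27. A match is only a description of these letters, and no binding was measured.

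In the controls CXCR4 was a gene of moderate level. Divided by the 2.22 kb of its exons in GENCODE 29, its mean level in the control libraries was 7.66 CPM (reads scaled to library size) per kb, against a median of 5.05 over the 14556 genes with a length, and 62.6% of genes lay lower. The other 22 genes of the chemokine receptor family that were looked for, among them ACKR3 (an atypical receptor that also binds CXCL12), were not among the genes analysed here, nor were the co-receptors CD4 and CD74. The cell type was checked from markers. Of 9 HEK293T markers 8 were in the tables, with IRS4 at 133 and VIM at 106 CPM per kb, and PAX2 was not among the genes analysed. Of 9 leukocyte markers only ITGAM was in the tables, with a mean of 88.1 counts per library, and none of 5 endothelial markers was.

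Under T-REX the level of CXCR4 was lower than in all 3 controls at each time point. Levels are CPM after TMM normalization, given as mean ± SD of 4 libraries. At 3 h the T-REX libraries were at 5.74, 7.87, 7.83 and 7.07 CPM, a mean of 7.12 ± 0.996. Light alone gave 11.6, 9.02, 12.2 and 7.37 CPM (10.04 ± 2.25), probe alone 12.6, 10.2, 11.7 and 10.3 CPM (11.2 ± 1.16), and DMSO 14.3, 12.7, 12.9 and 16.2 CPM (14.04 ± 1.60). T-REX overlapped light alone through replicate 4 of that control and lay below every probe-alone and DMSO library.

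At 6 h the T-REX libraries were at 8.47, 8.91, 10.99 and 10.4 CPM (9.70 ± 1.203). Light alone was at 17.02, 17.8, 16.98 and 11.8 CPM (15.9 ± 2.75), probe alone at 17.9, 19.5, 12.0 and 11.3 CPM (15.2 ± 4.11), and DMSO at 16.3, 14.96, 13.4 and 15.7 CPM (15.1 ± 1.27). All 4 T-REX libraries lay below all 12 controls, by a narrow margin of 10.99 against 11.3 CPM, since replicates 3 and 4 of probe alone and replicate 4 of light alone stood apart from the rest of their arms.

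At 12 h the separation was wide. T-REX was at 10.6, 13.1, 12.9 and 12.1 CPM (12.2 ± 1.13), while light alone was at 22.4, 28.8, 24.2 and 24.3 CPM (24.95 ± 2.70), probe alone at 21.3, 21.1, 22.6 and 18.1 CPM (20.8 ± 1.90) and DMSO at 23.1, 28.7, 29.9 and 22.6 CPM (26.1 ± 3.74). The highest T-REX library (13.1 CPM) lay below the lowest control (18.1 CPM). The T-REX mean was 60.6% of the mean of the controls at 3 h, 63.0% at 6 h and 50.9% at 12 h. Of all genes, 1.65% had their 4 T-REX libraries below all 12 controls at 3 h, where CXCR4 did not, 0.422% at 6 h and 1.17% at 12 h.

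Ordered by mean over the 12 groups, T-REX at 3 h was lowest and DMSO at 12 h highest. T-REX at 3 h did not overlap the next group up, T-REX at 6 h, and light alone at 6 h did not overlap probe alone at 12 h. Every other neighbouring pair in the order had overlapping libraries. T-REX at 12 h (12.2 CPM) lay between probe alone and DMSO at 3 h. The spread among replicates (coefficient of variation 8.40% to 27.1%) was larger than the counting error of a single library, which was 3.29% to 8.14%.

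Each difference was tested with edgeR's quasi-likelihood test across all genes, with Benjamini-Hochberg adjustment and a threshold of 0.05. At 12 h CXCR4 fell against every control. The log2 fold change from light alone was -1.04 (SE 0.11, adjusted p = 9.2e-06), a 2.05-fold lower level. The difference from probe alone was -0.78 (SE 0.11, adjusted p = 0.000316), or 1.71-fold, and that from DMSO was -1.10 (SE 0.11, adjusted p = 7e-07), or 2.14-fold. By unadjusted p, CXCR4 ranked 1 of 14685 genes in the first of these comparisons, 7 in the next and 3 in the last. From the lowest log2 fold change it ranked 5, 16 and 10 in the same order. The shares of all genes called in these comparisons were 1.29%, 0.701% and 10.9%. Some HEK293T markers also fell. Of the 8 in the tables, 2 were SDE (called the same way against at least 2 controls) and lower at 12 h. Of all genes, 0.912% were. 1 of the 2 markers was IRS4 (-0.30 from light alone, 0.02 from probe alone and -0.38 from DMSO). It was also the 1 marker SDE and lower at 6 h, beside 0.0817% of all genes. At 12 h, 4 of the 8 were called lower against DMSO, and the list medians were -0.08, -0.05 and -0.14 beside 0.00 over all genes. Their part in the fall of CXCR4 was not tested.

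At 3 h CXCR4 fell against probe alone, by 0.64 on the log2 scale (SE 0.15, adjusted p = 0.0433), and against DMSO, by 0.97 (SE 0.15, adjusted p = 0.00112). The difference from light alone was -0.50 (SE 0.15) and did not pass (adjusted p = 0.124). Against DMSO only 1 gene had a lower log2 fold change. Of all genes, 5.99% were called in the comparison with DMSO, 1.05% in that with probe alone and 0.197% in that with light alone. The call against probe alone was lost in 6 of the 8 fits that left out 1 library (replicates 1, 2 and 4 of T-REX and replicates 1, 2 and 3 of probe alone), with adjusted p up to 0.150, and the difference from light alone passed without light alone replicate 4 (log2 fold change -0.62, adjusted p = 0.0458).

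At 6 h the differences were -0.71 from light alone, -0.65 from probe alone and -0.64 from DMSO (SE 0.16 each), and none passed in edgeR (adjusted p = 0.0698, 0.172 and 0.0785). Their unadjusted p-values were 0.000203, 0.000562 and 0.000652, and DESeq2 called all 3, with adjusted p = 0.00353, 0.0230 and 0.0103. By unadjusted edgeR p CXCR4 ranked 42, 48 and 122 in the same order, and from the lowest log2 fold change 14, 24 and 136. The shares of all genes called by edgeR in these comparisons were 0.218%, 0.109% and 0.415%. DESeq2 called more genes there, 153, 57 and 288 of the 14685. Without light alone replicate 4 the first difference was -0.83 and passed (adjusted p = 0.00615). Two-sided exact permutation tests of the log2 CPM, 4 libraries against 4, gave p = 0.0286 in each of the 9 T-REX comparisons other than that with light alone at 3 h, the smallest p this design allows, and that one gave 0.0857. Adjusted over the 9 comparisons, and not over all genes, these were 0.0321 and 0.0857. The comparisons of a time point share the T-REX libraries, and CXCR4 was chosen with earlier results of these libraries known.

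The study counts a gene as significantly differentially expressed (SDE) when it passes against at least 2 of the 3 controls, and here both had to be in the same direction. CXCR4 was SDE and lower at 3 h and at 12 h and was not SDE at 6 h. The 3 h status was lost without replicate 1, 2 or 4 of T-REX or replicate 1, 2 or 3 of probe alone. Leaving out DMSO replicate 1 or 2, or fitting only the 2 arms compared, lost it as well. At 12 h every fit that left out 1 library, and that with only the 2 arms, kept it. With NCBP1 as a covariate, given below, fewer than 2 controls passed at 3 h and at 12 h. The paper names CXCR4 among its top-ranked SDE genes from the same libraries, so these calls are not separate evidence. Of all genes, 0.769% were SDE and lower at 3 h, 0.0817% at 6 h and 0.912% at 12 h, and 0.177%, 0.0545% and 0.490% were SDE and higher.

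Among the controls themselves CXCR4 was called in none of 9 comparisons by edgeR, although 4 had an unadjusted p under 0.05. DESeq2 called 1 of them, probe alone against DMSO at 12 h, where it called 1323 of the 14685 genes. With the 2 RUV factors (scores of unwanted variation that the authors deposited for each library) as covariates, edgeR called 3. These were light alone against DMSO at 3 h, and probe alone against DMSO and light alone against probe alone at 12 h. Of all genes, that fit called 858, 3298 and 1231 in the same order. At 3 h light alone was lower than DMSO by a log2 difference of -0.48 (SE 0.14, adjusted p = 0.410), probe alone by -0.34 (SE 0.14, adjusted p = 0.974), and light alone differed from probe alone by -0.14 (SE 0.14, adjusted p = 0.690). At 6 h the same differences were 0.08, 0.01 and 0.07 (SE 0.16 each, adjusted p = 0.862, 0.993 and 0.952). At 12 h light alone differed from DMSO by -0.07 (SE 0.10, adjusted p = 0.856), probe alone from DMSO by -0.33 (SE 0.10, adjusted p = 0.0661), and light alone from probe alone by 0.26 (SE 0.10, adjusted p = 0.274). Probe alone was thus the control nearest to T-REX at 12 h and light alone was the nearest at 3 h. Shares of genes called by edgeR without covariates follow, for light alone against DMSO, probe alone against DMSO and light alone against probe alone. They were 0.00681%, 0.00681% and 0.232% at 3 h, 0.00681%, 0.0272% and 0.0613% at 6 h, and 0.0136%, 5.11% and 0.415% at 12 h.

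CXCR4 was higher at 12 h than at 3 h in every arm. Time cannot be told apart here from anything else that the 16 libraries of a time point share, such as their preparation. From 3 to 12 h the log2 rise was 0.77 (SE 0.15, adjusted p = 5.69e-05) under T-REX, 1.31 (SE 0.15, adjusted p = 8.06e-10) in light alone, 0.89 (SE 0.15, adjusted p = 2.36e-06) in probe alone and 0.89 (SE 0.14, adjusted p = 2.2e-06) in DMSO. From 3 to 6 h it was 0.45 (adjusted p = 0.0300) under T-REX, 0.66 (adjusted p = 0.000706) in light alone and 0.44 (adjusted p = 0.0257) in probe alone, while DMSO differed by 0.10 (adjusted p = 0.676). The T-REX call from 3 to 6 h was lost without replicate 1 or 4 at 3 h or replicate 3 or 4 at 6 h, and that of probe alone without replicate 2 or 4 at 3 h or replicate 1 or 2 at 6 h (lowest log2 rises 0.36 and 0.30). Large parts of the transcriptome moved over the same intervals. The shares of genes called at 12 h against 3 h were 41.7%, 39.4%, 42.3% and 38.8% (T-REX first, then the controls in the order light alone, probe alone, DMSO), and over the first interval, to 6 h, they were 23.3%, 25.3%, 21.5% and 16%.

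Whether the T-REX difference itself changed with time was tested as an interaction in 1 fit of all 48 libraries. No interaction passed. The difference from light alone was larger at 12 h than at 3 h by -0.54 (SE 0.21, unadjusted p = 0.0134, adjusted p = 0.540 by edgeR), and that from probe alone by -0.12 (SE 0.21, adjusted p = 0.844). Against DMSO it was -0.12 (SE 0.21, adjusted p = 0.896) for 12 h minus 3 h, 0.34 (SE 0.21, adjusted p = 0.447) for 6 h minus 3 h and -0.46 (SE 0.21, unadjusted p = 0.0292, adjusted p = 0.386) for 12 h minus 6 h. In the other 4 the estimate lay between -0.33 and 0.01, with adjusted p of at least 0.992. Over all genes, 0 to 10 passed in each of the 9 interactions.

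NCBP1 (ENSG00000136937), the targeted gene, was checked because the cells carried an NCBP1-Halo plasmid, whose transcripts the counts cannot separate from the endogenous ones. It took 3.08% to 9.22% of the normalized counts of a library. At 6 h its mean was 72832 CPM under T-REX, 41696 in light alone, 82943 in probe alone and 53742 in DMSO. At 12 h it was 57501, 40520, 59151 and 34642 CPM. Set against DMSO, T-REX had more NCBP1 at 3 h (0.50 on the log2 scale, adjusted p = 0.0290) and at 12 h (0.73, adjusted p = 0.00252), and it had more than light alone at 6 h (0.80, adjusted p = 0.0214). Against probe alone it differed by 0.25, -0.19 and -0.04 at the 3 time points (adjusted p = 0.308, 0.878 and 0.942). The log2 fold changes of CXCR4 against the same control were -0.64, -0.65 and -0.78. Fits with NCBP1 as a covariate are given below. Because NCBP1 differed between some of the arms, they cannot separate its part in the differences of CXCR4, which was not tested.

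Within the 12 groups, the library lowest in CXCR4 was the highest in NCBP1 in 5 and the lowest in 4. Light alone replicate 4 at 6 h had the lowest CXCR4 (11.8 CPM) and the highest NCBP1 (52728 CPM) of its group, probe alone replicate 4 at 6 h had 11.3 and 90361 CPM, and probe alone replicate 4 at 12 h had 18.1 and 74043 CPM. Light alone replicate 4 at 3 h was instead lowest in both, at 7.37 and 56091 CPM. Over the 48 libraries, each gene centred on the mean of its time point, Pearson's r of CXCR4 with NCBP1 was -0.56, and -0.26 after the mean of each group was subtracted. The points share library preparation and depth, and r is given as a description. With the log2 NCBP1 level as a covariate in edgeR, the 12 h comparison of CXCR4 with light alone gave -0.91 (adjusted p = 0.0535), that with probe alone gave -0.78 (adjusted p = 0.000232), and that with DMSO gave -0.92 (adjusted p = 0.203). In that fit no gene passed against light alone (189 without the covariate), 154 passed against probe alone and 2 against DMSO. At 6 h the difference from light alone became -0.19 (adjusted p = 0.943), that from DMSO -0.37 (adjusted p = 0.565), and that from probe alone -0.74 (adjusted p = 0.0385). At 3 h it was -0.67 against probe alone, which no longer passed (adjusted p = 0.0913), and -1.04 against DMSO (adjusted p = 0.0418).

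By edgeR with all 16 libraries of a time point, the other genes of the CXCR4 pathway were called about as often as genes in general. Of 171 genes in 9 lists by role, 126 were in the tables. SDE genes numbered 1 at 3 h (GNAQ), 0 at 6 h and 1 at 12 h (EGLN3), or 0.794%, 0% and 0.794% of them, beside 0.947%, 0.136% and 1.40% of all genes. An unadjusted edgeR p under 0.05 in the same direction against 2 or more controls was found for 22 of them at 3 h, 9 at 6 h and 16 at 12 h, or 17.5%, 7.14% and 12.7%, beside 15.8%, 5.22% and 12.2% of all genes. DESeq2 called 4 of them SDE at 6 h, beside 71 of all 14685 genes, so the share was larger among the pathway genes. It was also larger at 6 h with the RUV factors (7 beside 344) and with only the 2 arms compared (3 beside 42). The share was smaller among them with DESeq2 at 12 h (2 beside 411) and with only the 2 arms at 3 h (0 beside 5). Leaving out 1 library at a time gave 0 to 4 SDE genes at 3 h, 0 to 3 at 6 h (above 0 without light alone replicate 3 or 4) and 1 to 4 at 12 h (4 without DMSO replicate 3). Over all genes these fits gave 35 to 368 SDE genes at 3 h, 8 to 46 at 6 h and 92 to 542 at 12 h. In the 3 T-REX comparisons at 12 h the list medians lay between -0.32 and 0.08, beside a median of 0.00 over all genes.

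Of the 3 ligands, CXCL12 was at a low level (0.950 CPM per kb in controls). At 12 h its T-REX mean was 6.28 ± 0.56 CPM against 6.59 ± 0.80 in light alone, 6.68 ± 0.14 in probe alone and 6.16 ± 0.40 in DMSO. Its log2 fold changes were -0.07, -0.09 and 0.03, none of which passed (adjusted p = 0.874, 0.843 and 0.922). MIF, a cytokine that also binds CXCR4, varied strongly between libraries, with 14.6 ± 16.5 CPM under T-REX at 3 h, and passed in no T-REX comparison (lowest adjusted p = 0.0603, against DMSO at 12 h). HMGB1, a chromatin protein that pairs with CXCL12 outside the cell, fell against DMSO at 3 h (-0.22 on the log2 scale, adjusted p = 0.0364) and 12 h (-0.32, adjusted p = 0.00237) and was not SDE.

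Among 19 G protein subunits in the tables, GNAI2, the main Gi alpha subunit, was at -0.16 (light alone), -0.13 (probe alone) and -0.19 (DMSO) on the log2 scale at 12 h (adjusted p = 0.516, 0.703 and 0.206). GNAQ, the alpha subunit that activates phospholipase C beta, was SDE and lower at 3 h, at -0.32 from DMSO (adjusted p = 0.00196) and -0.24 from probe alone (adjusted p = 0.0347), with -0.16 from light alone (adjusted p = 0.151). At 12 h its values were 0.03, 0.09 and -0.09 and did not pass.

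The 15 desensitisation genes in the tables gave no SDE gene at any time point. GRK2, the kinase that phosphorylates the active receptor, had log2 fold changes of 0.07, -0.02 and 0.05 at 12 h (SE 0.08 each), and ARRB2, the arrestin that uncouples it, had -0.11, -0.11 and -0.05 (SE 0.08 each). In the same list RGS2, which speeds GTP hydrolysis by G alpha, was called lower against DMSO at 12 h (-0.73, adjusted p = 0.00314). ITCH, the ubiquitin ligase that marks CXCR4 for lysosomal sorting, was at 0.12, 0.04 and 0.08 (SE 0.05 each), and all 16 genes of its list were not SDE. Of 52 effector genes, 6 were called lower against DMSO at 12 h, where 10.9% of all genes were called in either direction, and their median there was 0.03.

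Among the 12 transcriptional regulators in the tables, NRF1 had log2 fold changes of 0.07, 0.06 and 0.04 at 12 h (SE 0.09 each) and YY1 had -0.05, -0.06 and -0.05 (SE 0.06 each). HIF1A, the oxygen-regulated subunit of HIF-1, fell against DMSO (-0.22, adjusted p = 0.0242) and was at -0.11 beside light alone (adjusted p = 0.463) and at 0.02 beside probe alone (adjusted p = 0.945). EPAS1, which encodes HIF-2 alpha, was at 0.01, -0.05 and -0.07 (SE 0.08 each). These are transcript levels, and HIF alpha subunits are regulated mainly through protein stability, which was not measured.

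EGLN3, a prolyl hydroxylase that marks HIF alpha for degradation and is itself induced by HIF, was the SDE gene at 12 h. Its level was 10.1 ± 1.21 CPM under T-REX against 14.96 ± 1.33 in light alone, 16.3 ± 1.85 in probe alone and 16.8 ± 2.54 in DMSO. The log2 fold changes were -0.57 (adjusted p = 0.00958), -0.70 (adjusted p = 0.00266) and -0.74 (adjusted p = 0.000357). Among the other genes of oxygen sensing, EGLN1 (-0.56) and CITED2 (-0.65) were called lower and ARNT2 (0.35) higher against DMSO at 12 h.

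Because HIFs raise CXCR4 transcription, 29 known HIF target genes were followed beside it, of which 27 were in the tables. At 12 h, 13 of the 27 were SDE and lower and none higher, beside 0.912% of all genes SDE and lower. Lower calls numbered 15 in the comparison with light alone and 12 in each of the others, where 1.29%, 0.701% and 10.9% of all genes were called in either direction, and the list medians were -0.49, -0.42 and -0.38 beside 0.00 over all genes in each comparison. BNIP3, a mitophagy receptor, was at 36.02 ± 5.26 CPM under T-REX and 63.1 ± 5.08, 66.3 ± 8.14 and 61.9 ± 4.97 CPM in the controls, in the order light alone, probe alone, DMSO. Its log2 differences were -0.81, -0.89 and -0.78 (adjusted p = 7.79e-05, 1.61e-05 and 3.41e-05). LDHA, which makes lactate from pyruvate, was at -0.69, -0.63 and -0.72 (adjusted p = 0.000159, 0.000545 and 3.41e-05). VEGFA, the angiogenic growth factor, was at -0.23, -0.16 and -0.10 and did not pass.

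At 3 h, 4 HIF target genes were SDE and lower and 1, STC2, higher (log2 fold changes 0.28 against light alone and 0.21 against DMSO), and at 6 h 1 was lower. Of all genes, 0.769% were SDE and lower and 0.177% higher at 3 h, and 0.0817% were lower at 6 h. Leaving out 1 library gave 0 to 4 SDE and lower at 3 h and 0 to 3 at 6 h. BNIP3 at 3 h was at -0.01, -0.16 and -0.19, in the same order, and did not pass, when CXCR4 was at -0.50, -0.64 and -0.97. At 12 h each of the 27 genes had a smaller log2 fold change in size than CXCR4 against light alone and DMSO, while BNIP3 and TMEM45A (-0.85), a membrane protein, exceeded it against probe alone. With NCBP1 as a covariate the number of HIF target genes SDE and lower at 12 h was 0, and in the other alternatives it was 11 to 19. Over all genes, only 2 were SDE in either direction in the fit with NCBP1, and 92 to 1315 in the others. The 3 fits at a time point share the T-REX libraries, so their counts are not separate evidence.

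**Figure D1:**
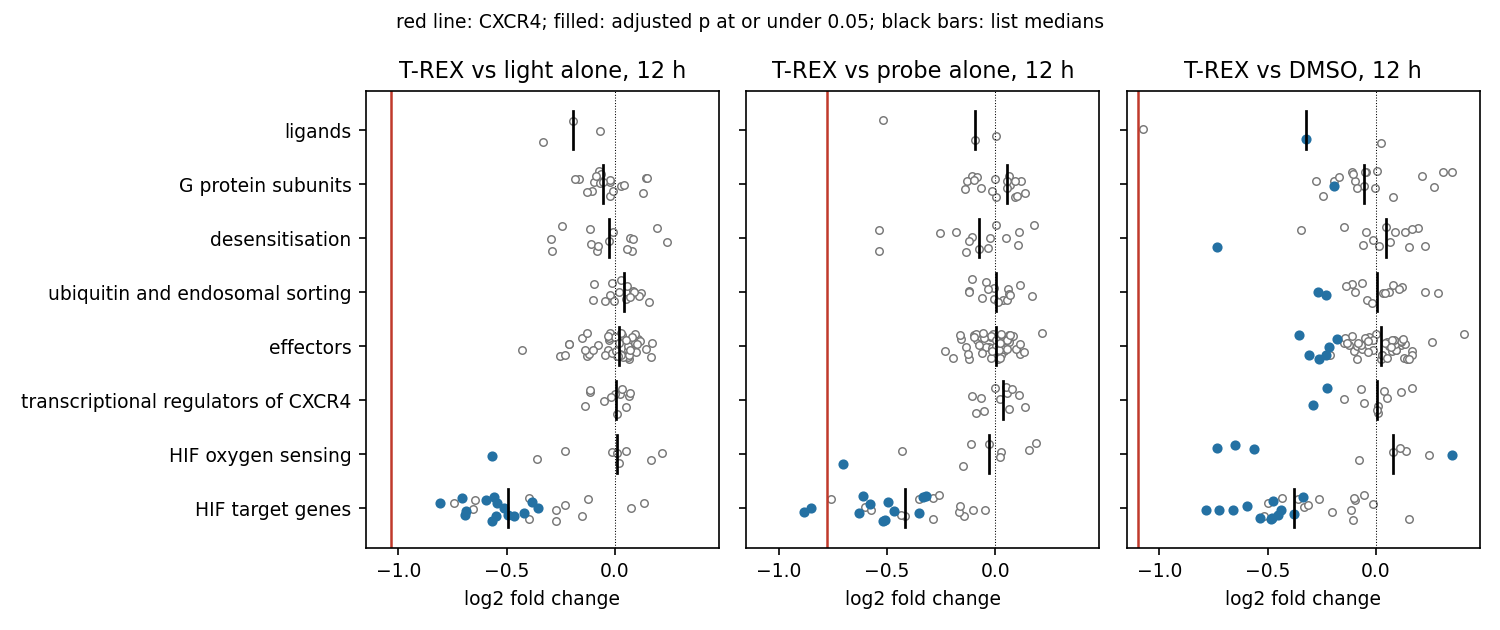
Log2 fold change at 12 h of T-REX against each control for the genes of the CXCR4 pathway lists and the HIF target genes. Each point is 1 gene (filled: adjusted p at or under 0.05), black bars are list medians and the red line is CXCR4. The HIF target genes lie to the left, with medians of -0.49, -0.42 and -0.38. The medians of the other lists lie between -0.32 (ligands against DMSO) and 0.08.

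The genes whose pattern was most like that of CXCR4 were found by Pearson's r over the 48 libraries, on log2 CPM minus the mean of the time point, among 12400 genes with a mean of at least 100 counts. Among the 5 highest were KDM3A (0.86), SDC2 (0.84), PLOD2 (0.83) and POU3F2 (0.83). KDM3A is a histone demethylase and a member of the HIF target list, SDC2 a heparan sulfate proteoglycan, PLOD2 a collagen lysyl hydroxylase, and POU3F2 a POU-domain transcription factor. The r is set in large part by the distance between T-REX and the controls, so lower values of these genes under T-REX follow from how they were chosen. After the mean of each group was subtracted, r was 0.51, 0.30, 0.53 and 0.40 in the same order.

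At 12 h the log2 differences of KDM3A from the controls, in that order, were -0.49, -0.35 and -0.44 and those of PLOD2 -0.62, -0.64 and -0.79, all smaller in size than those of CXCR4. POU3F2 was at -0.47, -0.46 and -0.64 at 3 h, and at -0.38, -0.27 and -0.74 at 12 h. The 5 lowest r belonged to SLC1A4 (-0.80), SLC7A11 (-0.76), PCLO (-0.75), LINC01033 (-0.75) and XBP1 (-0.74). SLC1A4 carries neutral amino acids, SLC7A11 exchanges cystine for glutamate, PCLO is a presynaptic scaffold, LINC01033 a long non-coding RNA, and XBP1 a transcription factor of the unfolded protein response. SLC7A11 was at 0.77, 0.73 and 0.90 at 12 h, and XBP1 at 0.43, 0.25 and 0.41.

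Of the 26 HIF target genes with at least 100 counts, 24 had a positive r with CXCR4, with a median of 0.62 against -0.01 over all 12400 genes, and 9 ranked among the first 100. After the group means were subtracted the median was 0.33 for these genes and 0.00 for all. Libraries of an arm that were lower in CXCR4 than their group tended to be lower in P4HA1 (r = 0.61), BNIP3 (0.62) and LOX (0.60) as well. These r were the highest of the 26, and INSIG2 (0.03), NDRG1 (-0.07) and P4HA2 (-0.19) lay near or below 0. These values come from the same 48 libraries and are a description.

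**Figure D2:**
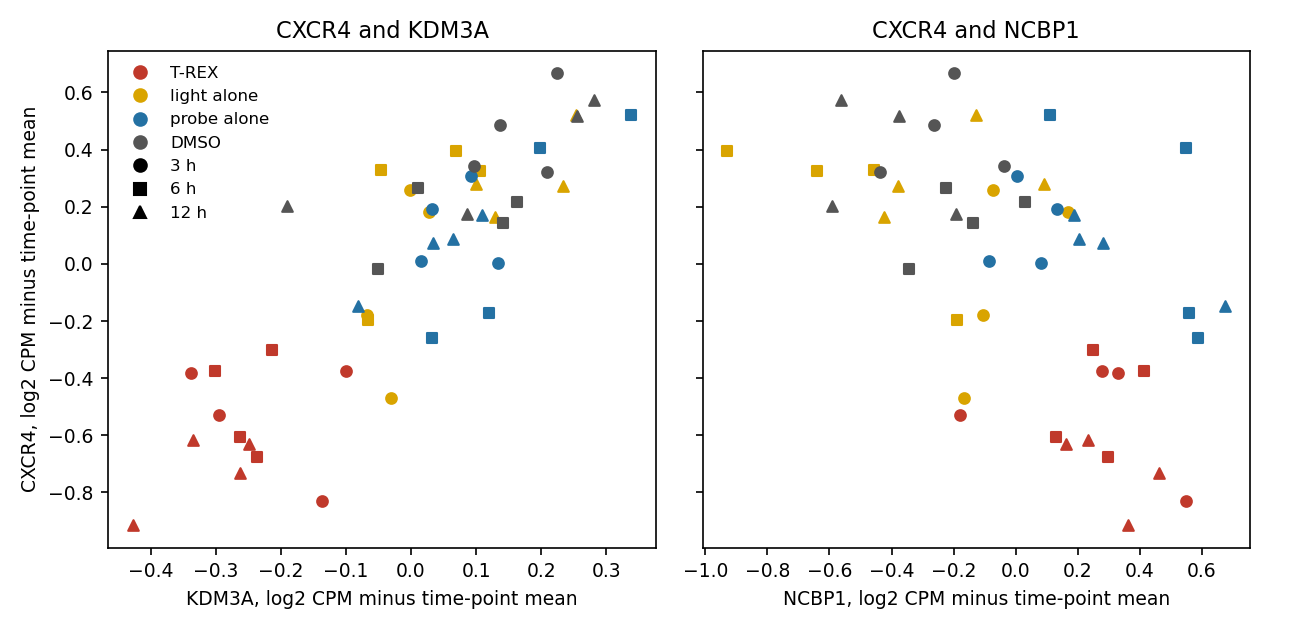
CXCR4 against KDM3A (left) and against NCBP1 (right) in the 48 libraries, as log2 CPM minus the mean of the 16 libraries of the time point. Colours are arms and shapes are time points. CXCR4 rises with KDM3A (r = 0.86), and the T-REX points lie at the lower left. In the right panel (r = -0.56) T-REX and probe alone share the higher NCBP1 levels at 6 and 12 h and differ there in CXCR4. At 3 h probe alone overlaps light alone in NCBP1, and the T-REX libraries span -0.18 to 0.55.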

How the data were processed

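RNA was measured in 48 libraries. The authors deposited, per time point, raw counts per gene, log2 CPM, log2 CPM from which a linear fit on 2 RUV factors was removed, and RUV scores per library. Libraries were made stranded after ribosomal RNA depletion. The study's reporting summary names cutadapt, TopHat and Cufflinks for the RNA sequencing. The tool that made the raw counts, the genome build and the annotation are not given in the sources used here, so no gene coordinates are printed from the files.

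Total counts were 23952455 to 37099535 per library, which gives CXCR4 a counting error of 3.29% to 8.14%. Counts were tested with edgeR 4.0.16 in R 4.3.3 (TMM, filterByExpr, which removed 0 genes, robust quasi-likelihood), 16 libraries per time point, and 48 for interactions and time. DESeq2 1.42.0, limma 3.58.1, other scalings, the RUV factors, NCBP1 and a replicate block as covariates, and leaving out each library were alternatives. The code was tested on simulated data. SE is the log2 fold change divided by the square root of F.

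The gene and lists were chosen with earlier results of these data known. Named are CXCR4, NCBP1, SDE genes of the lists, 11 set members (ligands, regulators and desensitisers), and the 5 highest and lowest r (1 of these genes is not reported here), as well as RGS2, EGLN1, CITED2, ARNT2, HMGB1, LDHA, VEGFA, STC2 and others named after their values were seen. Replicates differed by more than counting error (chi-square per degree of freedom 3.15 to 46.5 in 72 pairs).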

Additional observations from a re-analysis of the deposited data

Results flagged for a closer look

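In light alone at 6 h, replicate 4 stood apart from the other 3 libraries of its group, at 11.8 CPM of CXCR4 beside 17.02, 17.8 and 16.98 CPM. Its gap to the nearest library was 0.858 of the range of the group, above Dixon's critical value for 4 libraries. This was seen in 1 of 12 groups, and chance alone flags about 1 group in 20. The library also had the highest NCBP1 level of its group (52728 CPM). Without it the log2 fold change of T-REX against light alone at 6 h was -0.83 (edgeR adjusted p = 0.00615) in place of -0.71 (adjusted p = 0.0698). Why it stood apart was not tested.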

How the results depend on the processing

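The T-REX log2 fold change of CXCR4 was below 0 in all 143 alternative fits of the 9 comparisons (-1.17 to -0.19). With NCBP1 as a covariate the calls at 12 h against light alone (-0.91) and DMSO (-0.92) and at 3 h against probe alone (-0.67) were lost and 6 h against probe alone (-0.74) was gained. Light alone minus DMSO (-0.18) and minus probe alone (-0.55) at 6 h changed sign. The RUV factors added the calls at 3 h against light alone (-0.50) and at 6 h against light alone (-0.70), probe alone (-0.64) and DMSO (-0.64), and those of light alone against DMSO at 3 h (-0.48) and of probe alone against DMSO (-0.32) and light alone against probe alone (0.26) at 12 h. DESeq2 added 6 h against light alone (-0.72), probe alone (-0.65) and DMSO (-0.64), and probe alone against DMSO at 12 h (-0.33). It gave no adjusted p at 3 h against light alone. In the T-REX comparisons that the RUV factors added, those fits called 1733, 1202, 257 and 1048 of all genes, in the order given. Only the 2 arms compared lost 3 h against probe alone (-0.64) and added 6 h against DMSO (-0.64). Probe alone minus DMSO at 6 h changed sign with limma-trend (-0.029).

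The replicate numbers showed no clear pairing of libraries. At 3 h correlations of same-numbered libraries were -0.64 to 0.58 (median 0.07). Those of other-numbered libraries were -0.65 to 0.70 (median -0.02). The replicate block added probe alone against DMSO at 12 h (-0.32, adjusted p = 0.0435), changed the sign of probe alone minus DMSO at 6 h (-0.011), gave 2 and 1 SDE pathway genes at 3 and 6 h (beside 191 and 23 over all genes), and changed no other call of CXCR4.

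SDE pathway genes at 3, 6 and 12 h were 9, 4 and 2 with DESeq2, 23, 7 and 13 with the RUV factors, and 0, 3 and 5 with only the 2 arms compared. Over all genes the SDE counts were 560, 71 and 411 with DESeq2 and 2114, 344 and 1315 with the RUV factors. With only the 2 arms they were 5, 42 and 382. HIF target genes SDE and lower at 3, 6 and 12 h were 1, 0 and 0 with NCBP1 as a covariate, where 16, 3 and 2 of all genes were SDE. At 6 h they were 4 with DESeq2, 9 with the RUV factors and 3 with only the 2 arms, which gave 0 at 3 h. These HIF counts were added after seeing the data. Of the 5 genes most like CXCR4, 1 remained without centring and 0 after the group means were subtracted.

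Leaving out 1 library gave -0.62 to -0.39 for T-REX against light alone at 3 h, -0.69 to -0.55 against probe alone at 3 h and -0.83 to -0.65 against light alone at 6 h. It gave -0.13 to 0.13 for probe alone against DMSO and -0.052 to 0.21 for light alone against probe alone at 6 h, -0.14 to 0.010 for light alone and -0.39 to -0.25 for probe alone against DMSO at 12 h, and -0.12 to 0.15 for the T-REX effect against probe alone at 6 h minus 3 h. The rise from 3 to 6 h was 0.36 to 0.51 under T-REX and 0.30 to 0.56 in probe alone. SDE pathway genes were 0 to 4, 0 to 3 and 1 to 4 and HIF target genes 0 to 4 at 3 h and 0 to 3 at 6 h. The cause of these changes was not tested.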
